A study of Mus musculus with 12 samples.

Results

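Etomoxir blocks carnitine palmitoyltransferase 1, the enzyme that commits long-chain fatty acids to import into mitochondria. Its effect on H3K27ac in the presence of acetate was measured in 4 of the 12 ChIP-seq libraries of the series, namely 2 of cells given etomoxir + acetate and 2 of cells given acetate alone. The members were chosen by their treatment labels. All were 4T1 cells, a mouse mammary carcinoma line of wild-type genotype, kept in DMEM with fetal bovine serum and treated for 48 h. Both groups received acetate at 5 mM, and the etomoxir + acetate group also received etomoxir at 50 µM. The other libraries came from cells treated with vehicle, etomoxir, or etomoxir with SB204990 (an inhibitor of ATP-citrate lyase) with or without acetate, 2 libraries each. Each treatment had 1 library in a first set (label suffix 0327p19, called set 1) and 1 in a second (0331p15, set 2). Neither the meaning of the suffix nor whether the libraries were separate cultures is given, so p-values measure at most the spread between these libraries. For single intervals that spread was estimated from all 12 libraries and from intervals of similar strength together, not from the interval's own libraries alone. As a model the material is 1 established line in serum-containing medium, and bulk chromatin cannot tell a change in all cells from a change in some of them.

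Acetyl-CoA is the donor of the acetyl group on lysine 27 of histone H3, a mark of active promoters and enhancers. Cells make it from glucose, from fatty acids by beta-oxidation in mitochondria, or from acetate through acetyl-CoA synthetases. Fatty acids can also bind peroxisome proliferator-activated receptors (PPARs). These nuclear receptors pair with retinoid X receptors on a direct repeat of the letters AGGTCA with 1 base between the copies (DR1), and they are known for inducing genes of fatty acid oxidation and lipid storage.

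The labelled cell type was checked against its markers. All 13 epithelial marker genes, among them Krt8 (a simple-epithelium keratin), had their start site inside an interval. The starts of 2 of 7 immune, 1 of 5 endothelial, 1 of 4 fibroblast and 0 of 4 adipocyte markers lay in an interval. Cd68, a lysosomal protein of macrophages, was one of the immune genes so covered, whereas Ptprc, the pan-leukocyte antigen CD45, had no start-site interval, and no interval was assigned to Adgre1, a macrophage receptor. Summed over their intervals, the epithelial markers took 1907 and 1772 ppm of the library total in acetate (1000000 ppm being the whole total) and 1772 and 1762 ppm in etomoxir + acetate (set 1 and set 2). The immune markers took 369 and 339 vs. 347 and 337 ppm, the endothelial markers 112 and 113 vs. 104 and 109.9 ppm and the fibroblast markers 56.2 and 64.1 vs. 56.9 and 61.8 ppm. The adipocyte markers, among which Cidec is also a PPAR target, took 19.8 and 20.7 vs. 20.1 and 19.3 ppm. Their part in the results was not tested.

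Start sites of several genes, among them Angptl4 and Rab11b, lay inside intervals that rose on both scales described below. Promoter sequences are shown for 3 other such genes. They were read from RefSeq on GRCm38.p6, the build of the deposited coordinates, are written 5′ to 3′ on the strand of the gene, and stop where annotated transcripts begin. Capitals mark a single copy of AGGTCA, or its complement TGACCT. Such a copy occurs in the 250 bases upstream of 14.0% of 32851 RefSeq promoters, and a DR1 match in 0.338% of them. The sequence of Pdk4 covers chr6:5496310-5496528 (minus strand), that of Fbp2 chr13:62858423-62858650 (minus strand) and that of Cpt1a chr19:3323051-3323284 (plus strand).
Pdk4: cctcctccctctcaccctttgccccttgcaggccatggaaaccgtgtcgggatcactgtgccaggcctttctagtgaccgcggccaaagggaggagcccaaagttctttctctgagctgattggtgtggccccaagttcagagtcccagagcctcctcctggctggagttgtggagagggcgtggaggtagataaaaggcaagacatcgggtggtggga
Fbp2: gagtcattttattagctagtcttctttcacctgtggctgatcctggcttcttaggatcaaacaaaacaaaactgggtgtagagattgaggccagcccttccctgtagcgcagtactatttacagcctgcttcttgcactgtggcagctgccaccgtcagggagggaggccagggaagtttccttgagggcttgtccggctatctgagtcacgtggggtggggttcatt
Cpt1a: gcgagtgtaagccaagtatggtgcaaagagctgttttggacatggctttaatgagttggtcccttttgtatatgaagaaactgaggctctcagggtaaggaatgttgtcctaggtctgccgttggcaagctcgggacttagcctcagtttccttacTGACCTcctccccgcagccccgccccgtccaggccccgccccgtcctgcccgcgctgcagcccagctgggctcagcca
The stretch of Cpt1a held 1 such copy, and those of Pdk4 and Fbp2 held 0.

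DR1 matches inside the intervals that rose are shown next, because DR1 is the element that PPARs bind. The letters searched, on both strands, were AGGNCA followed by any base and AGGNCA again. Of the 36 intervals that rose after division by the column sum, 9 (25%) held a match, compared with 8.03% of 63848 tested intervals with sequence. The intervals that rose were longer, so this share is not comparable as it stands. Within the length of 3 to 6 kb the shares were 6.67% (1 of 15) and 8.18%. From 6 to 12 kb they were 28.6% (4 of 14) and 17.2%, and at 12 kb or more 57.1% (4 of 7) and 43.0%. These shares rest on few intervals and were not tested. Per 100 kb there were 3.62 matches in the 36 intervals and 2.50 in all tested ones. Only 5 of the 13 matches in the 36 intervals, and 2673 of 6448 in all tested intervals, lay outside repeats masked in the genome. These 5 are printed with the match in capitals. The windows lie at chr19:3335917-3336009 (plus strand), chr3:27232217-27232309, chr4:53218264-53218356 (both minus strand) and chr6:5417009-5417101 (plus strand), and the match near Angptl4 at chr17:33774404-33774416 (minus strand, 8 bases shown on each side).
Cpt1a intron: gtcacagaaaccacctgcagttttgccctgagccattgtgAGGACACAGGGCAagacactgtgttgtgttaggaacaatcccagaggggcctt
Nceh1 intron: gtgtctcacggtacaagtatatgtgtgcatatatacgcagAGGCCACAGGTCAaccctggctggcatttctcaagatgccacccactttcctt
4930412L05Rik: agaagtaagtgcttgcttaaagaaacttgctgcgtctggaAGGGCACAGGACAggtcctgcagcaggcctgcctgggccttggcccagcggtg
Asb4 intron: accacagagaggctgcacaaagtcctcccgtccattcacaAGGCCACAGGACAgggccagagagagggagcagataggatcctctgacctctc
Angptl4: cacccaaaAGGTCAAAGGACAgaacagat
The strongest intervals at Pdk4, Acot2 and Fbp2 held no DR1 match by these letters. As a comparator, the AP-1 motif TGANTCA was found in 94.4% of the 36 intervals and 55.2% of all, and at 12 kb or more in 100% and 99.3%.

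The deposited value of an interval is its read count multiplied by a factor that the authors derived from human chromatin added as a spike-in. The acetate libraries held 16.7 and 11.6 M reads in intervals (1 M being 1000000; set 1 and set 2) and the etomoxir + acetate libraries 13.7 and 13.5 M. Their factors were 0.604 and 0.861 in acetate and 1 and 0.960 in etomoxir + acetate. Since set 1 and set 2 each contain a library with a factor of 1, their factors are not on a common scale. In set 1 the scaled total was 10.1 M in acetate and 13.7 M in etomoxir + acetate, a 1.36-fold difference. In set 2 it was 9.99 and 12.9 M, or 1.29-fold. The total was thus higher in etomoxir + acetate within each set. A comparison of totals across the sets takes their scales as equal. On that footing the exact two-sided permutation test gave p = 0.333, the smallest p that 2 against 2 libraries allow. The fold of reads was 0.819 in set 1 and 1.16 in set 2, and that of the factor 1.66 and 1.11, so the scaled total moved with the spike-in factor in both sets and against the reads in set 1. Without acetate, etomoxir vs. vehicle gave totals of 1.17-fold in set 1 and 1.02-fold in set 2.

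**Figure D1:**
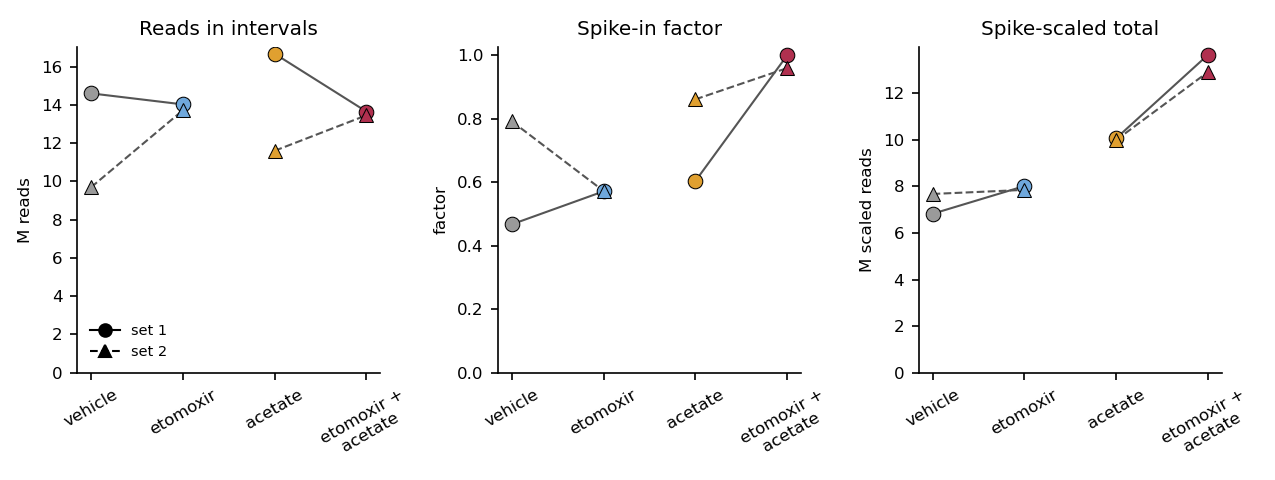
Reads in intervals (M), spike-in factor and spike-scaled total (M) in vehicle, etomoxir, acetate and etomoxir + acetate. Circles are set 1, triangles set 2 and lines join the libraries of a set without and with etomoxir. The total of etomoxir + acetate lies above that of acetate in set 1 (13.7 vs. 10.1 M) and in set 2 (12.9 vs. 9.99 M), while reads go opposite ways.

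The higher total was shared by most tested intervals but was uneven between weak and strong intervals. Among 63903 intervals with a mean value of at least 10, the deposited value was higher in etomoxir + acetate in 96.4% in set 1 and 87.0% in set 2, with a median log2 ratio of 0.62 and 0.38. After each column was divided by its sum, which removes a shift common to all intervals, the medians were 0.20 and 0.02. Etomoxir + acetate was then higher in 68.6% and 52.7% of intervals. In the 15976 weakest intervals by mean, the summed deposited signal was higher by 0.89 on the log2 scale in set 1 and 0.39 in set 2. In the 15976 strongest it was higher by 0.37 in both sets. The acetate library of set 1 had 1.74% of its total in the weakest intervals, compared with 2.24% in that of set 2 and 2.38% and 2.27% in etomoxir + acetate. The low share of this 1 library stood beside the larger ratio in set 1, and its part in it was not tested. Promoter intervals had a median log2 fold change of 0.41 as deposited, intergenic ones 0.45 and intronic ones 0.53. After division by the column sum these became 0.01, 0.05 and 0.13. The per-interval log2 ratios of the 2 sets correlated weakly, with r = 0.03 across all tested intervals and 0.19 across the 24109 with a mean of at least 50. Intervals are not independent replicates, and this r is a description only.

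At single intervals, as deposited, 99 were higher in etomoxir + acetate vs. acetate (0.155% of 63903) and 0 were lower (limma, adjusted p under 0.05, in a fit of all 12 libraries). At an unadjusted p under 0.05 there were 15644. The count rested on the model. edgeR on the recovered reads with the spike-in scale called 105 higher and limma with the set as a replicate block 173, whereas limma without the intensity trend called 0, with each library's read share times its factor 0, and with median-of-ratios scaling 5. After division by the column sum, 36 were higher (0.0563%) and 1 was lower (0.00156%), with 2833 at an unadjusted p under 0.05. Here edgeR with TMM scaling called 10 higher, DESeq2 11, median-of-ratios scaling 5 and limma without trend 1, and each of these was among the 36. All 36 were among the 99. On the divided scale their log2 fold changes ran from 0.50 to 1.71 with a median of 0.98, against a median of 0.10 over all tested intervals. The acetate and etomoxir + acetate libraries did not overlap in any of the 36, but 28.2% of all tested intervals also did not overlap in that direction and 10.9% in the other. As deposited these shares were 78.6% and 0.325%. By the authors' annotation, 18 of the 36 were intergenic (50%, compared with 24.6% of tested intervals), 15 intronic (41.7% and 52.8%), 2 at promoters (5.56% and 9.03%) and 1 at a transcription end site (2.78% and 6.81%). No test was made of these shares. Of the 36, 5 contained the start of a protein-coding gene. The counts changed with the libraries fitted. Refits without the acetate library of set 1 or set 2 gave 14 and 23 higher calls on the divided scale, of which 14 and 20 were among the 36. Those without the etomoxir + acetate library of set 1 or set 2 gave 8 and 6, all among the 36. As deposited these 4 refits gave 24, 34, 12 and 26 calls, all among the 99. Without the etomoxir + SB204990 library of set 2, which stands apart from the rest with 7.18 M reads, there were 69 higher calls on the divided scale, including all 36, and 10658 as deposited, including all 99.

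**Figure D2:**
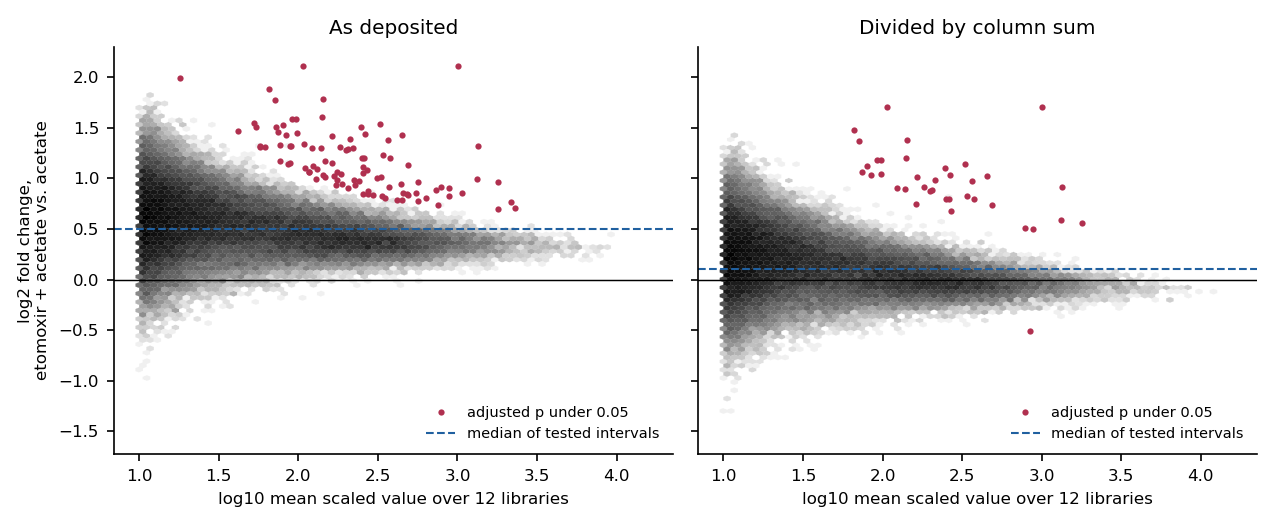
Log2 fold change of etomoxir + acetate vs. acetate (y axis) against the log10 mean scaled value over 12 libraries (x axis) for 63903 intervals, as deposited (left) and divided by the column sum (right). Grey shading gives the density of intervals, red points are limma calls (99 left, 37 right) and the dashed line is the median (0.50 left, 0.10 right). Most called intervals lie among the stronger ones, and 1 point on the right lies below 0.

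Among called intervals, the largest log2 fold changes on both scales, equal to 2 decimals, were at Pdk4 and between Acot2 and Acot1. Pdk4 encodes the kinase that switches off pyruvate dehydrogenase. Its interval (chr6:5495394-5519590, GRCm38) is intergenic in the authors' annotation but contains the Pdk4 start site by GENCODE. It overlaps the gene body only in part and lies mostly upstream of the gene. The deposited value was 399.6 and 393 in acetate and 1710 and 1726 in etomoxir + acetate. As a share of the library total it was 39.7 and 39.3 ppm in acetate vs. 125 and 134 ppm in etomoxir + acetate, a 3.16-fold difference in set 1 and 3.40-fold in set 2. The groups were far apart relative to the spread within each. The log2 fold change was 2.11 ± 0.18 (SE, limma adjusted p = 8.4e-27) as deposited and 1.71 ± 0.09 (adjusted p = 1.3e-08) after division by the column sum. The SE as deposited came almost wholly from intervals of similar strength, so that p does not measure the spread at this interval. It was the only interval called in all 14 alternative settings on the divided scale.

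The change at Pdk4 extended over its neighbourhood. Of 15 tested intervals assigned to Pdk4 or its neighbour Asb4 (an ankyrin repeat protein of ubiquitin ligases), spanning chr6:5409686-5626929, 5 were called on both scales. All 15 had a positive log2 fold change after division, from 0.24 to 1.71 with a median of 0.62. An interval 84625 bp from the Pdk4 start (chr6:5580934-5592335) had 17.1 and 18.0 ppm in acetate and 35.4 and 42.5 in etomoxir + acetate. This gave a log2 fold change of 1.14 ± 0.13 (SE, limma adjusted p = 5.1e-04) after division and 1.54 as deposited. Another, 53872 bp from the start (chr6:5550181-5558744), went from 12.5 and 13.5 ppm to 24.98 and 26.9 (log2 fold change 0.99, adjusted p = 0.0011). In an intron of Asb4 (chr6:5409686-5418550), an interval with one of the DR1 matches printed above had 13.01 and 16.9 ppm vs. 28.3 and 32.9 (1.04, adjusted p = 0.0029). The broad interval between the genes (chr6:5423055-5457814) had 129 and 135 vs. 190.0 and 199 ppm (0.56, adjusted p = 0.022). The groups did not overlap in any of the 5, as in 28.2% of all tested intervals, and 68.6% and 52.7% of all tested intervals were positive in set 1 and set 2. The last 3 were chosen for naming after their values were seen, as members of this locus.

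The intergenic interval between Acot2 and Acot1 (chr12:83996578-84001260, 8230 bp from the Acot1 start) was weaker than that of Pdk4 and had 3.78 and 4.66 ppm in acetate and 13.8 and 14.1 in etomoxir + acetate. The pair encode thioesterases that release free fatty acids from acyl-CoA, Acot2 in mitochondria and Acot1 in the cytosol. The log2 fold change was 1.71 ± 0.17 (SE, limma adjusted p = 1.8e-04) after division and 2.11 ± 0.27 as deposited (adjusted p = 3.7e-10). The interval at the Acot2 start itself (chr12:83985118-83990825) had 21.3 and 16.6 vs. 33.1 and 28.8 ppm and was called only as deposited (1.116, adjusted p = 4.3e-04, compared with 0.71 and 0.11 after division). A further interval, near Acot1 (chr12:84018492-84022535), was likewise called as deposited (1.54, adjusted p = 0.0063) and not after division (1.14, adjusted p = 0.14). Acot1 and Acot2 are near-identical copies, so reads within them cannot be placed with certainty.

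Fbp2 encodes the muscle form of fructose-1,6-bisphosphatase, a gluconeogenic enzyme. At its start site (chr13:62856386-62860871) the values were 5.28 and 5.35 vs. 12.2 and 12.1 ppm, nearly equal within each group (log2 fold change 1.18 ± 0.18, SE, limma adjusted p = 0.0084 after division, and 1.58 as deposited).

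Intervals at or near Angptl4, Hilpda, Ucp3 and Nceh1 also rose on both scales. These genes, and Rab11b and Plin2 described with them, were chosen for naming after their interval values were seen and are not a list that was tested. Angptl4 encodes a secreted inhibitor of lipoprotein lipase. The interval with its start site (chr17:33774033-33792193) is assigned to the neighbouring 4931413I07Rik in the authors' annotation, and it had 86.3 and 83.3 ppm in acetate vs. 153 and 168 in etomoxir + acetate. The log2 fold change was 0.92 ± 0.11 (SE, limma adjusted p = 8.2e-04) after division and 1.32 as deposited. In the same neighbourhood, an interval with the start of Rab11b, a GTPase of recycling endosomes (chr17:33744275-33765406), rose less (0.50, adjusted p = 0.033). Hilpda encodes a lipid droplet protein that inhibits triglyceride breakdown. An interval 21185 bp from its start (chr6:29241093-29251303) had 29.7 and 23.7 vs. 54.4 and 53.8 ppm (1.03 ± 0.14, adjusted p = 0.0029), whereas that at the start was called only as deposited (0.96, adjusted p = 6.8e-04, compared with 0.56 and 0.14 after division).

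Ucp3, a mitochondrial carrier of the uncoupling protein family, had 22.2 and 21.5 ppm in acetate and 44.3 and 41.7 in etomoxir + acetate at an interval 3007 bp from its start (chr7:100458900-100469983). Its log2 fold change was 0.97 ± 0.11 (SE, limma adjusted p = 5.1e-04) after division and 1.38 as deposited. Nceh1, which hydrolyses cholesterol esters, had an intronic interval (chr3:27226618-27237330) with 24.8 and 27.9 vs. 46.2 and 45.4 ppm (0.80, adjusted p = 0.0015). The lipid droplet coat gene Plin2 was called only as deposited (0.71, adjusted p = 0.028). After division its interval had 229 and 199.9 vs. 267 and 261 ppm, at 0.30 on the log2 scale (adjusted p = 0.96).

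The target of etomoxir was itself among the genes called. Cpt1a encodes the liver form of carnitine palmitoyltransferase 1. The interval with its start site (chr19:3320685-3347179) had a deposited value of 988 and 1036 in acetate and 2077 and 1964 in etomoxir + acetate. In ppm these were 98.2 and 104 vs. 152 and 152, without overlap. The log2 fold change was 1.00 ± 0.18 (SE, limma adjusted p = 4.0e-05) as deposited and 0.59 ± 0.09 (adjusted p = 0.010) after division. The call was made in 9 of 14 alternative settings as deposited and in 6 of 14 after division, where it was lost without any 1 of the 4 libraries. All 9 tested intervals of Cpt1a had positive values on the divided scale (0.06 to 0.74), and 1 of them was called. Cpt2, the inner-membrane enzyme of the same shuttle, and Mlycd, which removes the CPT1 inhibitor malonyl-CoA, were called only as deposited and were chosen after their values were seen. The Cpt2 start interval had 12.7 and 13.9 vs. 23.2 and 19.0 ppm (1.06, adjusted p = 0.0059 as deposited, 0.66 and 0.14 after division). That of Mlycd had 7.50 and 8.88 vs. 13.3 and 13.4 ppm (1.10, adjusted p = 0.021, and 0.70 with 0.49).

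Other called intervals lay near genes of other kinds. One in an intron of the noncoding 9330188P03Rik (chr14:105612762-105618499, 278320 bp from Spry2, the nearest coding start) had 6.66 and 6.90 vs. 18.2 and 17.5 ppm (log2 fold change 1.38 ± 0.13, SE, limma adjusted p = 4.9e-05). Another lay 12819 bp from Tie1, an endothelial receptor tyrosine kinase (chr4:118502880-118508164), with 3.24 and 3.71 vs. 8.72 and 9.59 ppm (1.37, adjusted p = 0.0030). As gene sums after division, the 4 tested endothelial markers had 0 calls and spread widely. Tie1 was at 1.25 on the log2 scale (limma adjusted p = 0.058), Cdh5 at -0.01 (0.99), Pecam1 at -0.15 (0.98) and Kdr at -0.78 (0.96), and 3 of them had an unadjusted p under 0.05. As deposited Tie1 was called (1.65, adjusted p = 0.040). The remaining intervals named by the same rule were near Lrrc6, a dynein assembly factor (chr15:66461922-66465905, 1.199), Ppef1, a phosphatase (chrX:160743994-160752336, 1.18), and the noncoding Gm12480 (chr4:54706977-54711682, 1.124). Of those chosen after their values were seen, an interval near Areg, an EGF receptor ligand (chr5:91121318-91125170), had 3.598 and 5.17 vs. 8.94 and 9.29 ppm (1.06, adjusted p = 0.044). One in Aldh1a1, the retinaldehyde dehydrogenase (chr19:20528190-20533500), had 18.3 and 16.0 vs. 30.3 and 29.3 (0.80, adjusted p = 0.0084). One at 4930412L05Rik (chr4:53216800-53221231, 56905 bp from the cholesterol transporter gene Abca1) had 4.92 and 6.04 vs. 10.4 and 12.1 (1.03, adjusted p = 0.023).

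**Figure D3:**
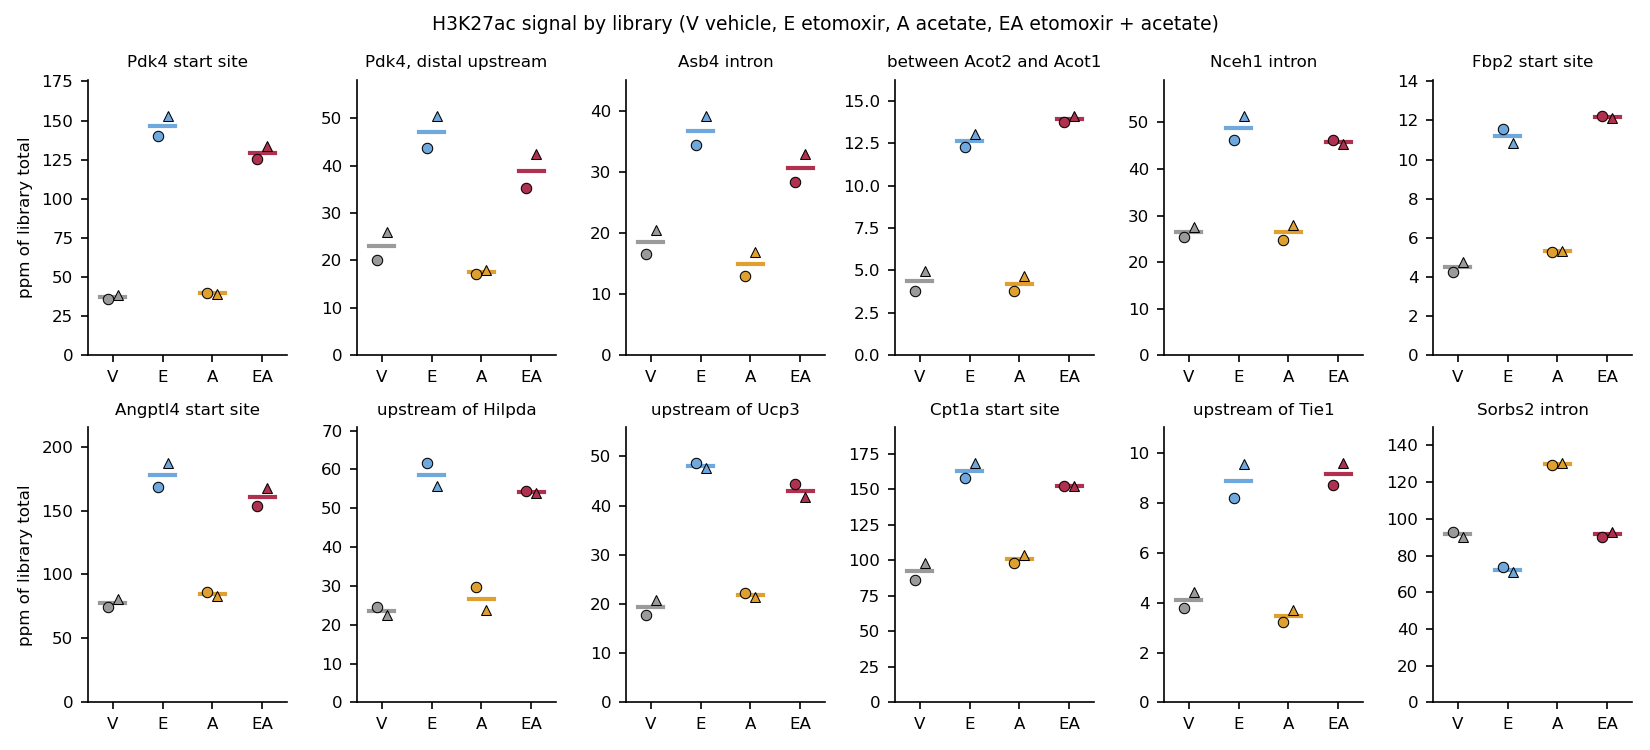
H3K27ac in ppm of the library total at 12 intervals in vehicle (V), etomoxir (E), acetate (A) and etomoxir + acetate (EA). Circles are set 1, triangles set 2 and lines the mean of 2 libraries. In 11 panels both EA points lie above both A points (for Pdk4, 125 and 134 vs. 39.7 and 39.3), and in the Sorbs2 intron they lie below (90.2 and 93.0 vs. 129 and 130.4).

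A single interval was lower, and only after division. It lay in an intron of Sorbs2, a cytoskeletal adaptor gene (chr8:45593493-45615879, assigned to Gm16351). Its deposited values were nearly the same, at 1303 and 1303 in acetate and 1231 and 1201 in etomoxir + acetate (log2 fold change -0.10, adjusted p = 0.65). In ppm of the total they were 129 and 130.4 vs. 90.2 and 93.0, a log2 fold change of -0.50 ± 0.09 (SE, limma adjusted p = 0.035). The libraries without acetate had 92.9 and 90.1 ppm in vehicle and 73.9 and 70.8 ppm in etomoxir. It was lost when any 1 of the 4 libraries was left out. No edgeR or DESeq2 call was lower.

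Summed per gene symbol, 15 of 19458 genes were higher as deposited (0.0771%) and 18 after division (0.0925%). On each scale 0 were lower in limma, and DESeq2 called 1 lower on reads. Unadjusted p under 0.05 was reached by 6334 and 902 genes in either direction. As deposited, the higher calls became 61 with the replicate block, 13 in edgeR with the spike-in scale, and 0 without trend, with median-of-ratios scaling or with each library's read share times its factor. After division they became 22 in DESeq2, 4 in edgeR with TMM scaling, 1 without trend and 0 with median-of-ratios scaling. Refits without any 1 of the 4 libraries called 1 gene after division, which was among the 18, and 2 to 4 as deposited, all among the 15. Without the etomoxir + SB204990 library of set 2 there were 30 and 8455.

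PPAR target genes of fatty acid use made up 5 of the 18 genes called after division. The list was drawn up with earlier results of these data known, so its values beside those of all genes are a description and not a test. Of the list's 30 genes, 17 were tested and 5 rose on both scales, 12 passed on neither, and 0 fell. Its median log2 fold change was 1.03 as deposited and 0.63 after division, against 0.43 and 0.03 over all genes. Among the 5 were Pdk4 (103 and 111 vs. 241 and 255 ppm, log2 fold change 1.21 after division, limma adjusted p = 2.3e-04), Acot2 (0.98), Fbp2 (1.16) and Ucp3 (0.89). After division Pdk4 was called in 13 of 14 alternative settings, Ucp3 in 8, Acot2 in 7 and Fbp2 in 4. Pdk4 and Plin2 had the highest mean of the list. In 12 of the 17 the etomoxir + acetate libraries lay above both acetate libraries after division, beside 25.4% of all tested genes. Acsl1, a fatty acyl-CoA synthetase, was at 0.05 and Lpl, lipoprotein lipase, at -0.31 (adjusted p = 0.98 for each), both chosen after their values were seen. Plin5, Fabp1, Fabp3, Cd36 and Fgf21 were among the 12 genes of the list with no assigned interval, and 1 more had too low a mean to be tested.

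Few genes of the oxidation steps themselves were called. Cpt1a was the 1 called of 7 tested genes of the carnitine shuttle, with 134 and 150.3 vs. 211 and 207 ppm (0.56 after division, limma adjusted p = 0.040). That call was made in 7 of 14 alternative settings, and in 4 of 14 as deposited. The list had a median of 0.21 after division. Of 15 tested genes of mitochondrial beta-oxidation 0 were called on either scale, although 7 had an unadjusted p under 0.05 after division. All 15 were positive, with a median of 0.15 beside 0.03 over all genes, and 11 had both etomoxir + acetate libraries above both acetate libraries, beside 25.4% of all tested genes. Acadl, the long-chain acyl-CoA dehydrogenase and the strongest of them, had 109.9 and 99.9 vs. 126 and 127 ppm (0.27, adjusted p = 0.60), and Acaa2, the thiolase of the last step, was at 0.15 (adjusted p = 0.98). The receptors had no calls among 16 tested genes with partners, and Ppard and Rxra, the strongest, were at -0.04 and 0.06. Peroxisomal oxidation (15 tested), acetyl-CoA supply (17), fatty acid synthesis (17), cholesterol synthesis and uptake (21), the integrated stress response (22), the NRF2 response (24), glycolysis (19) and histone acetylation enzymes (28) had 0 calls each in limma, with 0 to 2 genes of each at an unadjusted p under 0.05 after division. Their medians after division lay between -0.02 and 0.09, near the 0.03 of all genes.

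**Figure D4:**
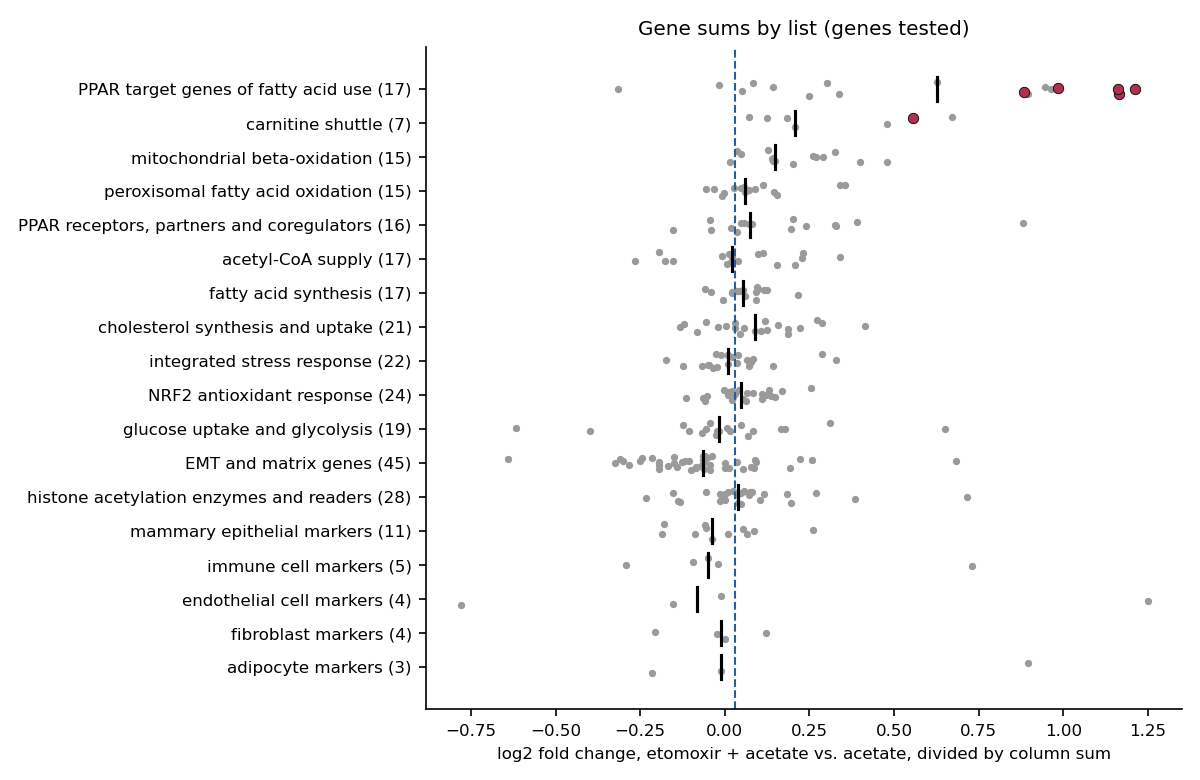
Log2 fold change of gene sums after division by the column sum (x axis), etomoxir + acetate vs. acetate, by gene list with the number tested in parentheses. Grey points are genes, red points are limma calls, black bars list medians and the dashed line the median of all genes (0.03). The PPAR targets have a median of 0.63 and 5 calls, and the carnitine shuttle 0.21 and 1 call.

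Genes of the epithelial-to-mesenchymal transition and matrix, the program the study followed, had 0 calls on either scale among 45 tested. Their median log2 fold change was 0.34 as deposited and -0.07 after division, beside 0.43 and 0.03 over all genes, and 4 had an unadjusted p under 0.05 after division (limma). After division 12 were positive, 18 had both etomoxir + acetate libraries below both acetate libraries (14.9% of all genes did) and 4 above. Postn, a matricellular protein of metastatic niches, had 172 and 158 vs. 144 and 150.4 ppm (-0.17, limma adjusted p = 0.98, and 0.24 as deposited). Col1a1, the chain of type I collagen, had 84.8 and 87.5 vs. 82.4 and 75.7 (-0.13 and 0.28). Sparc, a matrix glycoprotein, had 138 and 161 vs. 141 and 144 (-0.06 and 0.34), and Itga5, the fibronectin receptor subunit, 82.8 and 82.0 vs. 77.3 and 81.6 (-0.05 and 0.35). In Sparc the groups overlapped, and in Postn, Col1a1 and Itga5 the higher etomoxir + acetate library lay under the lower acetate library. The strongest genes of the list, Col4a1 and Pmepa1, were at 0.09 and -0.19. Mmp9, a matrix metalloproteinase named after its value was seen, had 179 and 167 vs. 143 and 141 ppm (-0.28, adjusted p = 0.31). Of the epithelial genes, Krt8 was at -0.09 and the claudin gene Cldn4 at -0.19, with 0 calls among 11 tested.

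The effect of etomoxir was then set beside that in cells without acetate, which rests on other libraries of the same fit. Etomoxir vs. vehicle had 48 intervals higher after division (0.0751%) and 1 lower. Of the 36 called with acetate, 34 were among those 48, which is 94.4% of the 36 and 70.8% of the 48. Both comparisons use the same SE for an interval, so one with a small SE tends to be called in both. All 36 had a positive log2 fold change without acetate, from 0.51 to 1.97 with a median of 1.07. The interval of Pdk4 had 36.2 and 38.7 ppm in vehicle and 140.1 and 153 in etomoxir, a log2 fold change of 1.97 compared with 1.71 in acetate. Those of Acot2 and Fbp2 had 1.53 and 1.30 without acetate and 1.71 and 1.18 with it. As deposited, 35 of the 99 calls with acetate (35.4%) were among the 36 higher without acetate (97.2%).

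The difference between the effects with and without acetate was tested as an interaction. No interval was called on either scale (limma), with 858 at an unadjusted p under 0.05 after division and 1142 as deposited. Among the 36 the interaction ran from -0.34 to 0.35 on the log2 scale with a median of -0.10, and 1 had an unadjusted p under 0.05, that of Ucp3 (adjusted p = 1.00 in limma). For Pdk4 it was -0.26 ± 0.13 (SE). Across gene sums there were also 0 calls, with 31 unadjusted as deposited and 94 after division. A miss does not show that the effects were equal. In all 36 the 4 libraries with both etomoxir and SB204990 also lay above both vehicle libraries, none of which the choice of the 36 compared, and this held for 8.55% of tested intervals.

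**Figure D5:**
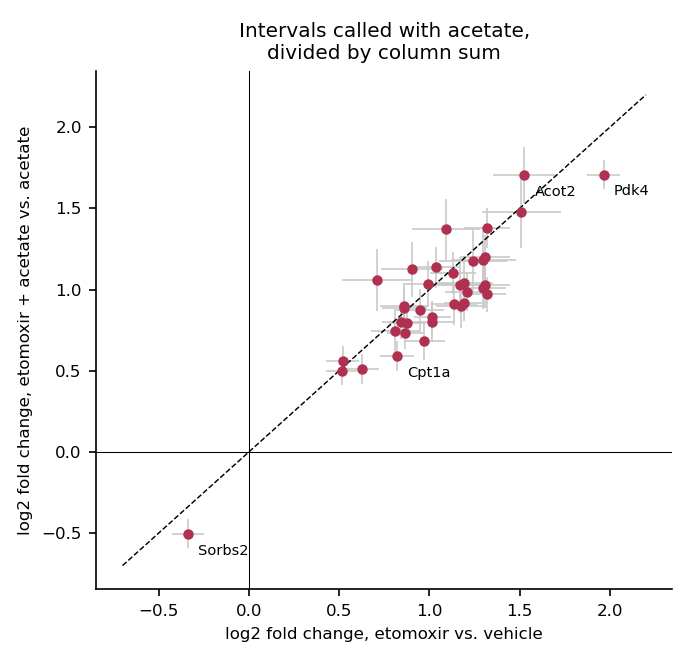
Log2 fold change after division by the column sum in etomoxir + acetate vs. acetate (y axis) and in etomoxir vs. vehicle (x axis) for the 37 intervals called with acetate. Bars are SE from limma and the dashed line marks equal values. The points scatter about the line, with Pdk4 at 1.71 and 1.97 and the interval in Sorbs2 at -0.50 and -0.34.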

How the data were processed

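H3K27ac ChIP-seq libraries of 12 samples (6 treatments, 2 each) were read from 1 table of 126464 intervals. The authors aligned reads with nf-core/chipseq to a merged human and mouse genome (GRCh38 and mm10), computed a factor from the share of human spike-in chromatin and multiplied the counts by it, so the deposited values are a scaled signal. The 2 columns with a factor of 1 hold deposited counts as such. Reads were recovered by dividing by the step of each column (100% whole within 0.001 reads). Groups came from the treatment labels. The table held 0 value columns outside these samples. The peak caller's settings and the pooling of replicates are not given in the sources used here.

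log2(value + 1) of intervals with a mean of at least 10 was fitted with limma 3.58.1 in R 4.3.3 (intensity trend, 6 group means, 12 libraries, Benjamini-Hochberg adjusted p under 0.05), as deposited and after each column was divided by its sum and multiplied by the mean sum. The fold changes are on this scale and understate changes of low intervals. limma shares its estimate of the spread among intervals of similar mean. As deposited, intervals with means of 1794 and 1800 had an SE of 0.1726 and 0.1725. The p-values as deposited thus hardly use the spread of the single interval. Values in ppm are shares of the scaled total of a library. Gene values are sums over the intervals of a symbol in the authors' annotation. Total signal was compared by an exact permutation test. The scripts were tested on simulated data. Alternatives used edgeR 4.0.16 and DESeq2 1.42.0 on the recovered reads, other scalings, filters, pseudocounts, a replicate block and omitted libraries. An interval at 0 allows up to 3 reads, and this limit covers counting error only.

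Named intervals were, on each scale, up to 10 with the largest absolute change among calls whose mean was 50 or more and whose direction was shared by the sets, and the 5 lowest after division. Named genes were up to 6 called per list, its 2 strongest, and Cpt1a, Pdk4, Acot2, Postn, Col1a1, Sparc and Itga5. Members, lists and tests were chosen with earlier results of these data known. Intervals on chromosome 18 are counted but not named. Some other members that this rule or the lists name are not reported here.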

Additional observations from a re-analysis of the deposited data

Results flagged for a closer look

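The 4 libraries of cells given etomoxir together with SB204990, with or without acetate, belonged to neither side of the comparison, and their values are given as a description. In 36 of the 36 intervals that rose in etomoxir + acetate after division by the column sum, all 4 lay above both vehicle libraries, compared with 8.55% of tested intervals. The ratio of the means ran from 1.36 to 5.02 with a median of 2.21. At the Pdk4 interval, etomoxir + SB204990 had 175 and 152 ppm and etomoxir + SB204990 + acetate 152 and 149, whereas vehicle had 36.2 and 38.7. With 2 libraries a group, no library could be tested as an outlier.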

How the results depend on the processing

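No called interval or gene that the text names, and not the total, changed direction under the alternatives run. Genes that were not called did: of 45 named genes, 22 had opposite signs on the 2 scales (0 of them called), among them Postn, Col1a1, Sparc and Itga5. The median over all genes was 0.43 as deposited, 0.03 after division and -0.07 with median-of-ratios scaling. As deposited, 99 intervals and 15 genes were higher. They became 258 and 26 with a mean of at least 50, 0 and 0 without an intensity trend, 5 and 0 with median-of-ratios scaling, and 0 and 0 with the share of reads times the factor. With only the 4 libraries they were 28909 (1 lower) and 14228 (1 lower). After division, 36 intervals (1 lower) and 18 genes (0 lower) became 1 (0 lower) and 1 without trend, 69 (15 lower) and 22 (3 lower) with only the 4 libraries, and 5 (0 lower) and 0 with median-of-ratios scaling. edgeR on reads gave 10 (0 lower) and 4, and DESeq2 11 (0 lower) and 22 (1 lower). Leaving out 1 library gave 12 to 10658 intervals and 2 to 8455 genes as deposited, and 6 to 69 intervals (0 to 10 lower) and 1 to 30 genes (0 to 3 lower) after division. The highest values came without the etomoxir + SB204990 library of set 2, a setting chosen after the data were seen, as were those without 1 vehicle or etomoxir library. The interaction had 0 calls except 1 as deposited without the vehicle library of set 1. Of 37 intervals called after division, 22 were called in at least 7 of 14 settings. The log2 change of the total was 0.41, 0.53 by the median over intervals, and 0.36 to 0.44 without 1 library.

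A replicate block gave 173 intervals and 61 genes as deposited, 43 and 18 after division and 0.40 for the total. What the set suffix marks is not given. The main fit did not treat the libraries as pairs, although each set has a spike-in scale of its own. Deviations from group means of acetate and etomoxir + acetate correlated at -0.04 on both scales, and 3 of 15 group pairs exceeded 0.1. A correlation across intervals does not see an offset shared by all intervals of a set. It therefore cannot decide whether the sets should be paired as deposited. With 2 libraries a group and 0.333 as the smallest exact p, a change of the total cannot be told apart from the spike-in factor.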

Other observations

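The intervals with the lowest log2 fold change after division by the column sum, among those with a mean of at least 50, were not called by limma. One near Prex2, an exchange factor for Rac (chr1:10897928-10900389), had 8.52 and 7.16 ppm in acetate and 4.98 and 4.46 in etomoxir + acetate, at -0.71 (adjusted p = 0.96). One near Gm10465 (chr12:54490973-54497272) had 21.8 and 23.2 vs. 13.3 and 15.5 ppm, at -0.64 (adjusted p = 0.32). A further pair lay on unplaced scaffolds, at -0.71 and -0.69, and their acetate libraries differed from each other (11.6 and 15.8, and 23.9 and 34.4 ppm). Of the 25 lowest, 18 were intergenic and 3 lay on unplaced scaffolds.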
